A study of Mus musculus with 6 samples.

Results

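The genes of the cytosolic ribosomal proteins were examined in RISC-IP libraries of mouse muscle cells. They were chosen by name from the mouse annotation GENCODE M21 (genome build mm10), as protein-coding genes called Rpl or Rps with a digit, with Rplp0, Rplp1, Rplp2 and Rpsa added and the Rps6k kinases left out. By this rule 92 of 21951 protein-coding genes were members, 57 named for the large ribosomal subunit and 35 for the small one. The members comprised 77 genes that each encode 1 protein of the cytosolic ribosome, 7 paralogues, 7 genes named as retrogenes or pseudogenes but annotated as protein-coding, and Rps19bp1, which encodes a protein that binds Rps19. Fau, which encodes a ribosomal protein fused to a ubiquitin-like protein, does not carry such a name and was not a member.

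The cells were primary mouse satellite cells (MSC), the muscle stem cells, kept for 30 h in differentiation medium to give myocytes. They were transfected with miR-222 duplex RNA or, as control, with a siGFP duplex, and lysed 16 h later. The labels give 10 nM of duplex, and the study's methods give another concentration. No untransfected cells were among the samples analysed here. Ago2, the protein of the RNA-induced silencing complex (RISC) that holds the miRNA, was immunoprecipitated, and the RNA bound to it was amplified and sequenced. The 6 libraries came from 2 experiments, of which the first gave 1 miR-222-IP (replicate 1) with a pair of control-IPs, numbered 1 and 2, and the second gave miR-222-IP replicate 2 with control-IPs numbered 3 and 4. Strain, sex and age of the animals are not given in the sources used here, and nothing states that libraries of 1 experiment came from separate cultures, so the spread between them may be technical. No input or mock immunoprecipitation was analysed here.

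Each library is a list of peaks, the genome intervals where sequenced fragments piled up, and each peak carries a score, the −log10 of the p-value that the peak caller gave it. The authors kept peaks with a score over 20. A score rises with the pile-up against its surroundings and with the depth of the library, which is unknown here, and it is not an RNA level. In bulk RNA, fewer cells of a type and less RNA per cell cannot be told apart. The lists held 10579 to 37762 peaks in 5 libraries, fewest in control-IP replicate 1 and most in miR-222-IP replicate 2. Control-IP replicate 3 stood apart, with 3619 peaks of a median width of 32103 bp on 10 chromosomes, against 362 to 411 bp in the others, and it is given separately. Of 11 markers of myocytes, all had an exonic peak in at least 1 of the 5 libraries and 6 had one in all 5, whereas Pax7 and Myf5, markers of undifferentiated satellite cells, and the 2 markers of adipocytes had none. The scores of the myocyte markers summed to 298 to 329 in the control-IPs, 471 in the miR-222-IP of experiment 1 and 1611 in that of experiment 2, where Myod1, for example, scored 174 against 22.3 to 29.2 in the others, and Myog and Tnnt1 had a peak only there. Single markers of endothelium, leukocytes and neurons had peaks in all 5 libraries, and 1 of 3 fibroblast markers had a peak in 1 library. Cd68 of leukocytes scored 114 to 139, Pecam1 of endothelium 26.1 to 81.2 and Snap25 of neurons 27.8 to 82.5. Ptprc, also of leukocytes, scored 69.0 to 142 in 4 libraries. The highest score of a myocyte marker in the control-IPs was 67.2. The part of these markers in the results below was not tested.

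Ribosomal proteins assemble with ribosomal RNA in the nucleolus into the small subunit, which decodes the mRNA, and the large subunit, which forms the peptide bond. Their mRNAs are short, abundant and stable, and many begin with a run of pyrimidines, the terminal oligopyrimidine (TOP) motif, through which growth signals control their translation. Several of the genes carry small nucleolar RNAs (snoRNAs) in their introns, and the family has left many processed pseudogenes, intronless copies of its mRNAs, in the genome. An miRNA in RISC binds mRNAs mostly through its seed, bases 2 to 8, and muscle growth draws on a large supply of ribosomes.

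The transfected miRNA and its relative miR-221 share 1 seed, which sets the motif searched in the members. In both mature sequences (RefSeq, GRCm38) the seed is in capitals.
miR-222-3p: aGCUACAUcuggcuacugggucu
miR-221-3p: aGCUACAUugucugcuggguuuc
The matching 7-mer in a transcript is ATGTAGC. It occurred 4 times in exons of 3 of the 92 members, and none of the 4 lay wholly under a peak of any of the 6 libraries. The last 3 bases of the 7-mer of Rpl10 lay under a peak of miR-222-IP replicate 2 that scored 101 and began at chrX:74272575. The sites are shown 5′ to 3′ on the transcript strand, all of them on the plus strand of mm10, with the 7-mer in capitals.
Rpl10, chrX:74272560-74272588: cttggtagtgtATGTAGCctattatctat
Rpl36a, chrX:134587190-134587218: ctaccaatttaATGTAGCttttttgtgtg
Rpl36a, chrX:134587225-134587253: gggggggaactATGTAGCacaggctaacc
Rpl3l, chr17:24736072-24736100: gcacacctgggATGTAGCactcttgctat
The sites of Rpl10 and Rpl36a belonged to exons of other annotated transcripts and not to the reference transcript, whereas that of Rpl3l lay in its 3′UTR. The reference transcript is the principal isoform of the annotation, or the longest coding one where several rank alike.

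Peaks of the 5 libraries covered 64021 exonic bases in 85 members, and 0 members (0%) had the whole 7-mer there. Among 10201 other protein-coding genes with a peak, 720 (7.06%) had it, at 0.0506 sites per kb of exon under peaks. Counting a 7-mer that shared at least 1 base with a peak, 1 member (1.18%), Rpl10, and 7.11% of the other genes had it. The 6-mer TGTAGC, which pairs with bases 2 to 7 and lies within the 7-mer, occurred in 9 members (10.6%) and in 26.1% of the other genes, at 0.141 and 0.223 sites per kb. For scale, CTACCTC, the 7-mer match of let-7a, was under peaks of 0 members (0%) and 10.9% of the other genes. ACATTCC, the match of the muscle miRNA miR-206, was under a peak of 1 member, Rpl27, and 10.0% of the other genes. In members and other genes the rates per kb were 0 and 0.0791 for let-7a and 0.0156 and 0.0729 for miR-206. Sites were searched on the transcript strand within single exons, so that a site across a splice junction would be missed. Of the 9 sites, 3 lay in a 3′UTR (Rpl41, Rpl27a and Rpl7l1), 2 in coding sequence (Rps16 and Rps3) and the others in exons of other transcripts, as in Rpl27 and Rpl9. Of those in the reference transcript, 2 were under a peak in all 5 libraries and are shown with the 6-mer in capitals, the first from the minus and the second from the plus strand.
Rpl41, chr10:128548145-128548172: ttgtggccaagTGTAGCtcgtgtacaat
Rps16, chr7:28352547-28352574: cggaccctgctTGTAGCtgacccccgtc
The peak over the Rpl41 site scored 327, 326 and 322 in control-IP replicate 1, control-IP replicate 2 and the miR-222-IP of experiment 1, and 319 and 282 in control-IP replicate 4 and miR-222-IP replicate 2. The peak over the Rps16 site scored 117, 150 and 131 in experiment 1 and 105 and 138 in experiment 2, in the same order. In neither gene was the miR-222-IP above the control-IPs in both experiments, with scaling of the libraries or without it. The values of the 5 libraries are given in this order from here on.

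Most genes for a ribosomal protein were under a peak in every library. An exonic peak, overlapping an exon by at least 1 bp, was found for 82 of 92 members in control-IP replicate 1, where 21.4% of all protein-coding genes had one. In control-IP replicate 2 it was found for 83 members (34.8% of all protein-coding genes) and in miR-222-IP replicate 1 for 81 (33.2%). In control-IP replicate 4 it was found for 82 (29.8%) and in miR-222-IP replicate 2 for 84 (44.7%). With only peaks of a score over 50, the counts of members were 63 (8.03% of all protein-coding genes), 70 (16.7%), 67 (15.6%), 64 (13.0%) and 79 (28.8%) in the order control-IP replicate 1, control-IP replicate 2, miR-222-IP replicate 1, control-IP replicate 4 and miR-222-IP replicate 2, with 56 members (6.56% of all genes) in all 5. In all 5 libraries 79 members (85.9%) had a peak, against 19.0% of all protein-coding genes, and against 17.2% of the other genes whose transcripts were no longer than the longest of the members. Of the 77 genes with 1 gene per subunit protein, 71 had a peak in all 5 libraries.

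**Figure D1:**
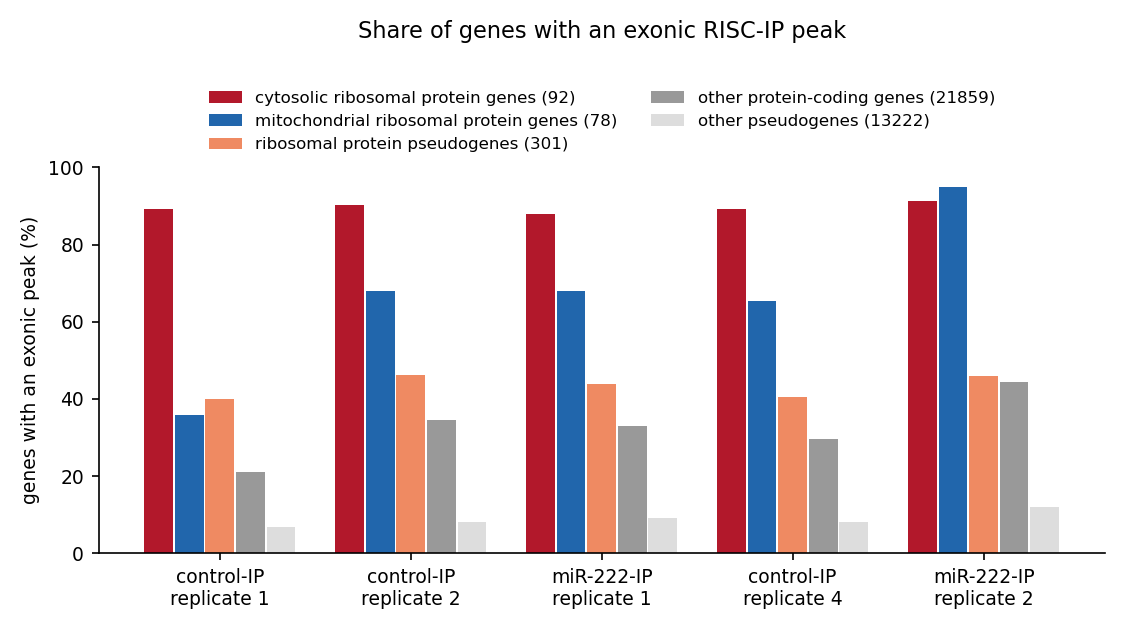
Share of genes (%, vertical axis) with an exonic peak in each of the 5 libraries (horizontal axis), for cytosolic and mitochondrial ribosomal protein genes, pseudogenes named after ribosomal protein genes, other protein-coding genes and other pseudogenes, with the number of genes in the key. The bars of the cytosolic genes stand for 81 to 84 of 92 genes in every library, whereas those of the 78 mitochondrial genes go from 28 to 74 genes.

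Mitochondrial ribosomal proteins build a separate ribosome for the genes of the mitochondrial genome, and their mRNAs do not belong to the TOP class. Of their 78 genes, 28, 53, 53, 51 and 74 had an exonic peak in the 5 libraries, and 25 had one in all 5. Of 23 other genes of translation 22 had a peak in all 5 libraries, the exception being Eif4a2, a helicase of the initiation complex. At its annotated start in RefSeq (GRCm38), 14 of the 66 members found in the promoter set (21.2%) began with C and 4 pyrimidines, the core of a TOP motif, against 2.63% of the other protein-coding genes. Of the 69 mitochondrial genes found there 0 did, and of 16 other genes of translation 5 did. Allowing the motif within 5 bases of the start, the shares were 45.5% of the members and 21.7% of the other protein-coding genes. By this looser rule they were 24.6% of the mitochondrial genes and 50% of the other genes of translation.

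The remaining 13 members were without a peak in at least 1 library. None of the 5 libraries had an exonic peak for Rpl3l, Rpl10l, Rpl39l, Rpl36a, Rpl36-ps4, Rpl9-ps1 and Rps19bp1. Rpl3l replaces Rpl3 in mature striated muscle, and Rpl10l and Rpl39l are copies used mainly in the testis. Rpl36a was the only gene with 1 gene per subunit protein among the 7. The other 6 had peaks in 1 to 4 libraries. Rps13 had a peak of 31.9 only in miR-222-IP replicate 2, and Rps21 had peaks of 25.6 and 26.4 only in control-IP replicates 1 and 2. Rpl12 had scores of 24.5, 22.6 and 45.4 in control-IP replicate 1, control-IP replicate 4 and miR-222-IP replicate 2, and Rpl9, Rpl27a and Rpl7l1 had peaks in 4, 4 and 3 libraries. No score of these 6 genes was above 66.1. Control-IP replicate 3, whose list covers the chromosomes of 42 members, had a wide peak over 36 of them, including Rpl9-ps1 (201) and Rps19bp1 (129). A peak in all 6 libraries was found for 33 members. The wide peaks touched exons of 5512 protein-coding genes. The matching shares of all protein-coding genes were not computed, so these counts have nothing to be set against. Of the 35 member peaks in that list, 32 overlapped exons of several genes, so these scores need not belong to the named genes.

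Ribosomal protein genes also ranked high by score. The median of the highest exonic score was 78.9, 96.9, 88.4, 80.9 and 96.6 for the members with a peak, and 39.1, 47.9, 47.1, 44.1 and 66.3 for other protein-coding genes with a peak. Ranked among all protein-coding genes with a peak in that library, the members had median percentiles of 82.5, 81.6, 79.7, 78.2 and 70.2. The top 10% of genes of each list held 31, 30, 31, 26 and 20 members. The lowest of these values was that of miR-222-IP replicate 2, the list with most peaks. Over the 5 libraries, 31 members had a median percentile of 90 or more and 14 had one under 50. For comparison, the mitochondrial ribosomal protein genes had median percentiles of 19.1, 41.2, 30.6, 34.5 and 44.2.

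**Figure D2:**
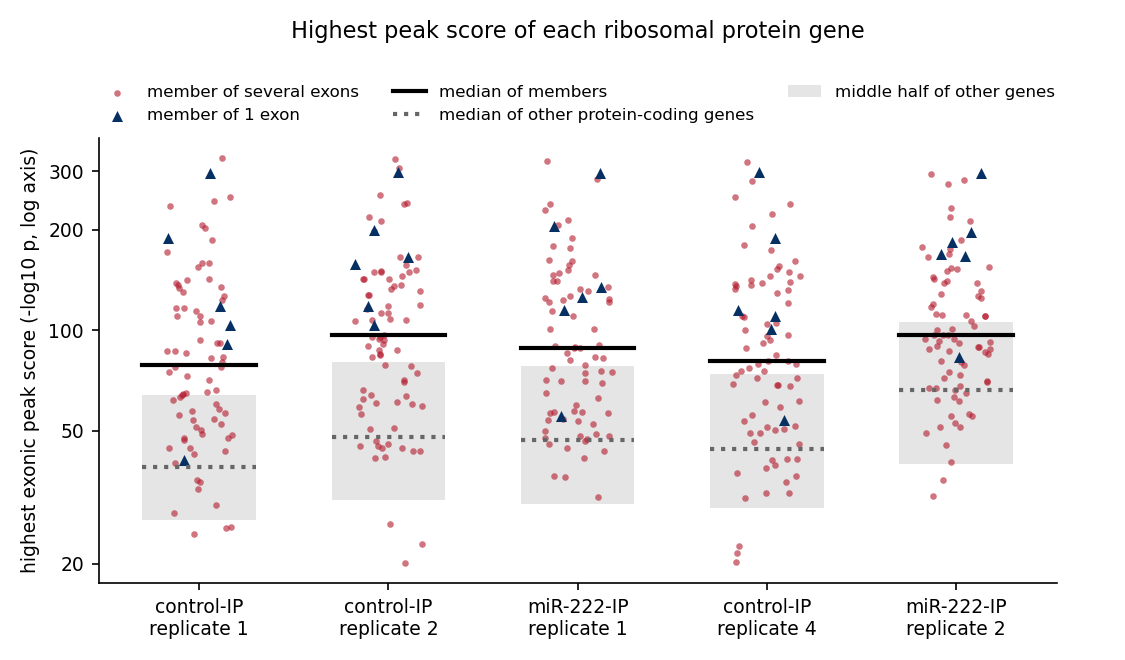
Highest exonic peak score (−log10 p, log axis) of each ribosomal protein gene in the 5 libraries, with members of several exons as circles and members of 1 exon as triangles. Solid lines mark the medians of the members, dotted lines and grey bands the median and the middle 50% of other protein-coding genes. The medians of the members lie between 78.9 and 96.9 and those of the other genes between 39.1 and 66.3.

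The 5 members of highest median percentile were Rpl41, Rps27rt, Rpl29, Rpl14 and Rps15. Rpl41, which encodes the smallest ribosomal protein, of 25 amino acids, had the highest peak of all members with scores of 327, 326, 322, 319 and 282. This peak covered the 3′ end of the gene at chr10:128548108-128548515 (minus strand, control-IP replicate 1), with 235 bp of 3′UTR and 103 bp of coding sequence. Rps27rt, an intronless copy of Rps27 that encodes the small subunit protein Rps27, scored 296, 299, 296, 297 and 296 at chr9:114982339-114982778 (minus strand, control-IP replicate 1), and its libraries differed by 1.01-fold at most. Rpl29 scored 250, 254, 284, 280 and 274, with its highest peak over the last of its 4 exons in every library. Rpl14 scored 207, 307, 213, 252 and 294, and Rps15, whose protein is needed for the export of the small subunit from the nucleus, scored 243, 239, 240, 238 and 233. The 5 highest single peaks were 4 of Rpl41 and 1 of Rpl14, and neither condition held the highest values of all 5 genes.

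At the other end, the lowest median percentiles among members with a peak in all 5 libraries were those of Rps27a, Rps7, Rpl22l1, Rps12 and Rpl17. Rps27a, made as a fusion of a small subunit protein with ubiquitin, scored 52.3, 107, 36.3, 31.5 and 40.3, and its control-IPs spanned 3.40-fold. Rps7 scored 44.4, 20.1, 44.6, 36.7 and 51.5, and Rpl17 scored 30.1, 43.5, 49.99, 41.2 and 56.1. Rps12 scored 35.7, 44.4, 41.4, 32.7 and 86.8. Rpl22l1 is described with the comparison of the conditions.

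The proteins of the ribosomal stalk, which recruits translation factors to the large subunit, differed in peak score. Rplp1 scored 236, 241, 229, 223 and 213, Rplp0, the base of the stalk, scored 137, 199, 135, 137 and 154, and Rplp2 scored 83.3, 108, 76.9, 96.7 and 96.7. The ranges of Rplp1, Rplp0 and Rplp2 did not overlap over the 5 libraries. Rpl5 and Rpl11, which bind 5S rRNA and, outside the ribosome, the p53 regulator Mdm2, scored 93.5, 74.7, 89.7, 110 and 94.4 and 64.8, 56.0, 75.5, 61.2 and 67.4. Rpl5 was above Rpl11 in each of the 5 libraries. Among small subunit genes, Rps14 and Rps19, both known from inherited or acquired anaemias in people, scored 143, 142, 124, 132 and 128 and 91.9, 112, 110, 96.0 and 125. Rps6, the target of the S6 kinases, scored 117, 149, 127, 121 and 140, and Rpsa, also known as a laminin receptor, scored 111, 151, 121, 91.8 and 120. Rps4x, the X-linked gene of a small subunit protein, scored 75.1, 118, 85.3, 73.6 and 103. Of the stalk genes and those named after them, Rpsa varied most, by 1.65-fold over the 5 libraries.

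As deposited, the scores of the members varied less from library to library than those of other genes. The SD of the log2 score over the 5 libraries had a median of 0.22 for the 79 members with a peak in all 5 and 0.59 for 4081 other genes. The highest score was within 1.5-fold of the lowest for 45 of the 79 members (57.0%) and for 7.47% of the other genes. Among genes of a median percentile of 90 or more this held for 24 of 31 members (77.4%) and 35.3% of 580 others, and between percentiles 50 and 75 for 12 of 23 members (52.2%) and 0.862% of 1508 others. The difference went the other way once the libraries were scaled to each other, since 6 members (7.59%) and 18.5% of the other genes then stayed within 1.5-fold, with median SDs of 0.40 and 0.38. Scaling divided each library by its median ratio over the 4160 protein-coding genes with a peak in all 5 libraries, with factors of 0.667, 1.02, 1.03, 0.943 and 1.58. A gene of equal scores as deposited differs by 2.37-fold once divided by these factors, so the scaled shares are not a separate observation. Both statements depend on whether the libraries are scaled.

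**Figure D3:**
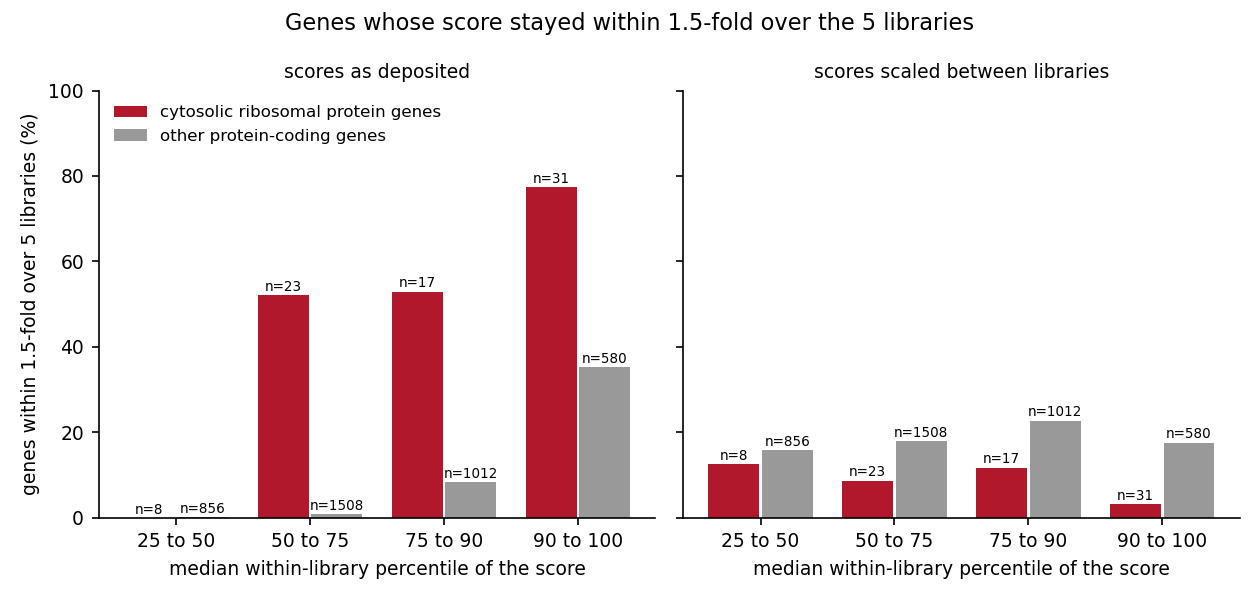
Share of genes (%, vertical axis) whose highest score was within 1.5-fold of the lowest over the 5 libraries, by median within-library percentile (horizontal axis), for cytosolic ribosomal protein genes and other protein-coding genes with a peak in all 5 libraries, and n is the number of genes. With scores as deposited (left) 45 of 79 members stayed within 1.5-fold, and with scaled scores (right) 6 did.

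The comparison of miR-222-IP with control-IP asks which RNAs RISC held more of when miR-222 was added. No member rose or fell by a test that could reach 0.05, because permuting the labels within experiments gives 6 arrangements and an exact permutation p of 0.167 at the smallest. Of the 79 members tested, 21 reached this value (two-sided), as did 11.9% of all protein-coding genes tested. On scaled scores, the median log2 ratio of miR-222-IP over the mean control-IP of its experiment was −0.35 in experiment 1 and −0.53 in experiment 2 for the members, against −0.04 and 0.00 for all 4160 genes. Without scaling the direction of experiment 2 turned, since the medians of the members were −0.01 and 0.22, against 0.25 and 0.75 for all genes. In both cases and both experiments the median of the members lay below that of all genes. In experiment 2 scaling shifts the ratio of every gene by the same amount. The order there could thus not differ between scaled and unscaled scores. Experiment 2 rests on miR-222-IP replicate 2, the library with most peaks, in which the summed score of the myocyte markers was 1611, against 299 in control-IP replicate 4, and the part of this in the ratios was not tested. These are ratios of −log10 p values and not fold changes in RNA.

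Both miR-222-IPs were below the control-IPs of their experiment for 42 of 79 members on scaled scores, against 17.2% of all genes, and both were above for 1 member, against 15.7%. On scores as deposited the split turned, with 6 members below, against 1.75% of all genes, and 21 above, against 46.1%. The counts moved with rank. Among other genes of a median percentile of 90 or more, 39.1% were below and 0.690% above on scaled scores, with 21 of 31 members of that rank below. Between percentiles 50 and 75, 9.95% of the other genes were below, with 8 of 23 members. The scaled median ratios moved with rank as well. At percentiles of 90 or more they were −0.13 and −0.54 for other genes and −0.36 and −0.70 for members in experiments 1 and 2. Between percentiles 50 and 75 they were 0.02 and 0.13 for other genes and −0.36 and −0.43 for members. Leaving out control-IP replicate 1 brought the median of the members in experiment 1 to −0.09, and leaving out control-IP replicate 2 brought it to −0.49. With control-IP replicate 3 added to experiment 2, its median was −0.36, and 13 of the 33 members with a peak in all 6 libraries were below. The share over all genes was not computed for this setting, so this count has nothing to be set against.

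**Figure D4:**
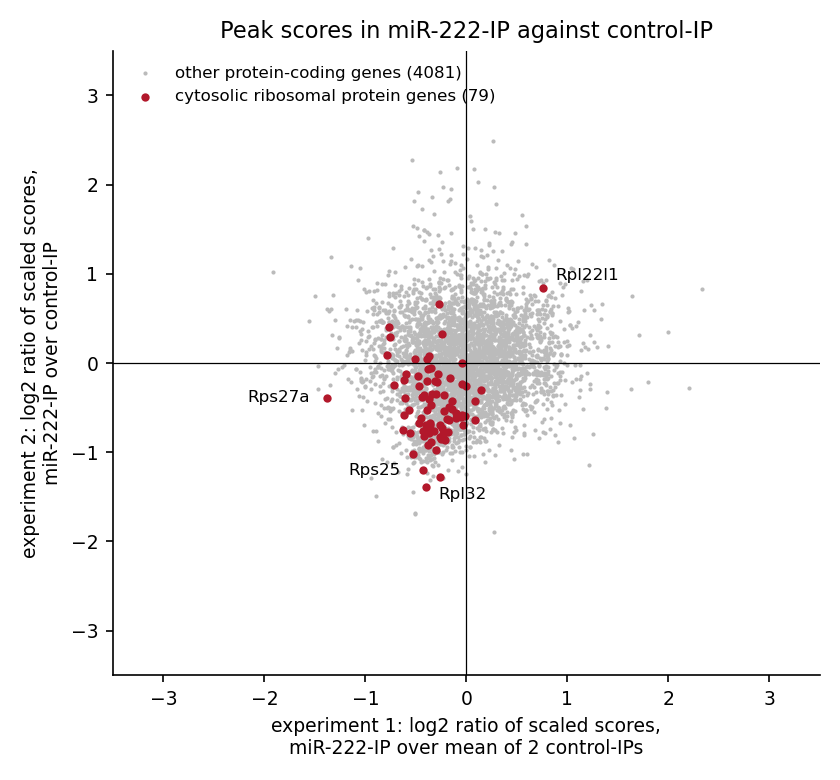
Log2 ratio of scaled peak scores of miR-222-IP over control-IP in experiment 1 (horizontal axis) and experiment 2 (vertical axis) for 79 ribosomal protein genes and 4081 other protein-coding genes with a peak in all 5 libraries, 1 point per gene. Of the 79 members, 75 lie left of 0 in experiment 1 and 69 below 0 in experiment 2, against 2242 and 2072 of all 4160 genes. Rpl22l1 lies apart in the upper right. Without scaling the medians of the members were −0.01 and 0.22.

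Rpl22l1, the paralogue of Rpl22, was the only member above in both experiments on scaled scores, and 1 of 21 without scaling. Its scores were 28.4 and 23.0 in the control-IPs and 57.0 in the miR-222-IP of experiment 1, and 37.3 and 112 in experiment 2. The scaled log2 ratios were 0.76 and 0.84 (1.15 and 1.59 without scaling), and the exact permutation p was 0.333. All 5 peaks lay over the last exon, at chr3:28807113-28807430 (plus strand) in miR-222-IP replicate 2, and no 7-mer or 6-mer match to miR-222 lay under them. Rpl22 itself, an RNA-binding protein of the large subunit, scored 115, 128, 148, 138 and 155, with scaled ratios of −0.05 and −0.58. It was above in both experiments without scaling and in neither with it.

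The lowest mean ratios among members below in both experiments were those of Rpl32, Rps27a and Rps25. Rpl32 scored 138, 136 and 133 in experiment 1 and 139 and 88.9 in experiment 2, with scaled ratios of −0.40 and −1.39 (exact permutation p = 0.333). Rps25, which is needed for initiation at some internal ribosome entry sites, scored 171, 166 and 161, and 161 and 117, with ratios of −0.43 and −1.20 (exact permutation p = 0.333). Without scaling their ratios in experiment 1 were −0.04 and −0.07, so that the difference lay mostly in experiment 2, where 1 library of each condition was compared. Rps27a had ratios of −1.38 and −0.39 (exact permutation p = 0.167), but without scaling its ratio in experiment 2 was 0.36. Rpl32, Rps25, Rps3, Rps14, Rplp1 and Rpl41 were the 6 members below in both experiments without scaling. They had to be below with it as well, because each miR-222-IP had a larger scaling factor than its control-IPs. All 6 had a median percentile over 90. Among other genes of a median percentile of 90 or more, 7.24% were below without scaling, against 1.64% of all other genes.

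By subunit, 24 of 47 large subunit and 18 of 32 small subunit members with a peak in all 5 libraries were below on scaled scores (17.2% of all genes), and 3 of 47 and 3 of 32 without scaling (1.75%). The scaled medians of the large and the small subunit were −0.31 and −0.36 in experiment 1 and −0.56 and −0.47 in experiment 2, so that their order differed between experiments. Of the 22 other genes of translation with a peak in all 5 libraries, 8 were below and Npm1, a nucleolar chaperone of ribosome assembly, was above. Eef1a1, Eef2, Fau, Rack1 and Tpt1 were among the 8. Of 25 mitochondrial ribosomal protein genes, 2 were below and 5 above, and their median ratios were 0.03 and 0.22. Without scaling 0 of these 25 and 0 of those 22 genes were below.

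Peaks over members held more coding sequence and less 3′UTR than those of other genes. The lists held 155, 157, 159, 161 and 191 peaks over member exons, of a median width of 303 to 331 bp, against 362 to 409 bp for peaks of other protein-coding genes. Of the 823 peaks over members, 811 (98.5%) touched coding sequence, against 84.1% of the peaks of other protein-coding genes. Of the bases of the member peaks, 46.4% were coding, 10.6% 3′UTR, 2.39% 5′UTR and 20.3% intronic. A further 17.9% belonged to exons found only in other transcripts of the gene. In peaks of other protein-coding genes 34.8% of the bases were coding, 38.2% 3′UTR and 5.17% of the last kind. How much coding sequence and 3′UTR the transcripts themselves hold was not set beside these shares. Its part in the difference was not tested. A single peak spanned several exons in 20.3% of the peaks over members and 7.92% of the others. The library with most member peaks, miR-222-IP replicate 2, had 41.9% coding and 11.7% 3′UTR bases, and the other 4 had 46.6% to 48.9% and 9.06% to 11.4%.

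Along the spliced transcript, cut into 10 equal parts, coverage of the members was highest in part 6. There 65.1% to 72.8% of the bases of the 73 members of several exons with a peak in all 5 libraries were under peaks. In part 1 the share was 10.2% to 15.1% and in part 10 it was 34.7% to 50.3%. In 3041 other genes no longer than the longest member, coverage rose to part 9, with 51.9% to 72.5%, and had 41.3% to 64.4% in part 6. These genes were not matched to the members in length, so a part can differ in size between the groups. The 5 libraries gave the same order of parts 1, 10 and 6 in the members.

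**Figure D5:**
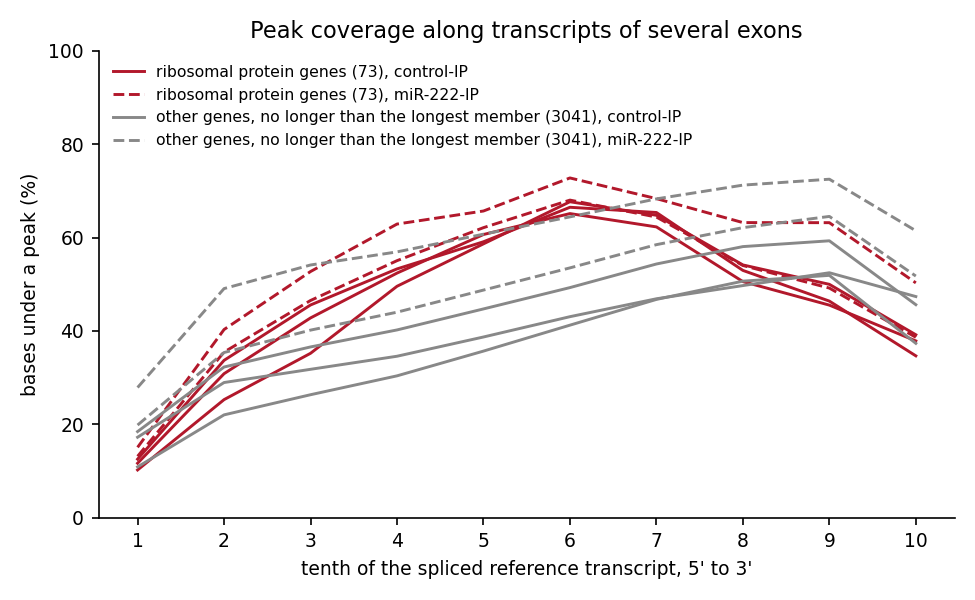
Share of bases under a peak (%, vertical axis) in 10 equal parts of the spliced reference transcript from 5′ to 3′ (horizontal axis), 1 line per library, solid for control-IP and dashed for miR-222-IP, for 73 ribosomal protein genes and 3041 other genes of several exons with a peak in all 5 libraries. The lines of the ribosomal protein genes are highest in part 6, at 65.1% to 72.8%, and those of the other genes in part 9. The other genes were not matched to the ribosomal protein genes in length.

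Of the 456 exons of the members with several exons, 172 (37.7%) were under a peak in all 5 libraries and 189 (41.4%) in none. First exons, where the short 5′UTR lies, had a peak in all 5 in 6 of 84 cases (7.14%), internal exons in 120 of 288 (41.7%) and last exons in 46 of 84 (54.8%). Length moved with this, since 10.8% of exons under 100 bp, 44.3% of those from 100 to 150 bp, 60.3% of those from 150 to 200 bp and 53.1% of longer ones had a peak in all 5. The highest peak of a member overlapped the last exon in 31 of 76, 42 of 77, 33 of 75, 32 of 76 and 37 of 78 cases in the 5 libraries, and the first in 2 to 4. In 52 of the 73 members of several exons with a peak in all 5, the highest peaks of all 5 libraries shared bases. Rps25 was such a gene, with its highest peak over exon 3 of 5 in every library, and so was Rplp0, over exon 7 of 7. In Rpl32 the highest peak was over exon 2 of 3 in 4 libraries and over exon 3 in control-IP replicate 2.

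Of 58 snoRNAs annotated within 30 members, 22 lay under an exonic peak of their host in at least 1 library and 7 in all 5. Rpl4 and Rpl13a had 3 snoRNAs each under such peaks, and Rps12 had 2. Those in all 5 libraries included Snord68 in Rpl13, Snord15b in Rps3, Gm22455 in Rpl4 and Gm24016 in Rps20. The 3 in Rpl13a were each under a peak in 1 library. A peak over an exon and a snoRNA of the neighbouring intron cannot be split between them with these lists.

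Near-identical copies limit which locus a score belongs to. Over the reference transcripts of the members, the median share of 100-base windows that also occurred in a transcript of another gene was 31.6%, and it exceeded 50% in 30 members. How reads that match several loci were placed is not given in the sources used here. The 27 members with a share of up to 25% had a median percentile of 92.6, the 24 with 25% to 50% had 73.6 and the 30 with more had 71.1. The 11 members with no shared window included Rps3, Rpl22 and Rps27l with a peak in all 5 libraries, Rps21 with a peak in 2, and 6 of the 7 members without a peak.

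Some 1-exon copies had higher scores than the gene of several exons they resemble. Rps27, of 4 exons, scored 47.6, 59.4, 43.7, 46.3 and 68.0, whereas Rps27rt, of 1 exon and with the same coding sequence (100% identity), scored 296 to 299. Rpl9 had a peak in 4 libraries, with scores of 66.1, 31.6, 20.3 and 49.2, and Rpl9-ps6 (99.8%) scored 118, 166, 135, 115 and 184. Rps12-ps3, identical to Rps12 in its coding sequence, scored 40.9, 104, 55.5, 54.0 and 83.0 and so was above Rps12 in 4 libraries and below it in miR-222-IP replicate 2. Rpl10 scored 111, 150, 125, 79.5 and 101, and Rpl10-ps3 (100%) scored 104, 158, 115, 110 and 167, so that here the order differed between libraries. Rpl36a had no peak, whereas Rpl36a-ps1 (97.8%) scored 90.8 to 170 and the intronless paralogue Rpl36al (87.7%) scored 189, 200, 206, 189 and 197.

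Of the paralogues of lower identity, 3 had no peak while their partners had one in all 5 libraries. Rpl3 scored 54.4, 90.8, 70.5, 93.6 and 92.3 and Rpl3l (74.3% identity) had no peak. Rpl10l (84.7% identical to Rpl10) and Rpl39l (85.0% identical to Rpl39) had no peak either, while Rpl39 scored 159, 119, 179, 153 and 218. Rpl7 scored 66.5, 113, 88.4, 69.1 and 100 and Rpl7l1 (57.3%) had 45.7, 21.5 and 55.3 in 3 libraries. Rps27l (76.2%), a p53-inducible relative of Rps27, had a peak in all 5 libraries with scores of 43.5, 94.1, 47.6, 38.8 and 86.0. These overlapped the scores of Rps27.

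Many pseudogenes named after ribosomal protein genes had peaks as well. Of 301 such loci 39.9% to 46.2% had an exonic peak in a library, against 6.68% to 12.1% of 13222 other pseudogenes. Of the 293 that could be matched by name to 61 members, 110 had a peak in all 5 libraries. In 103 cases pseudogene and member both had one in all 5, and the pseudogene scored above the member in all 5 libraries in 60 of them and below it in 23. Rpl37rt, for example, scored 298, 281, 304, 307 and 285, and Rps25-ps1 scored 279, 262, 275, 282 and 294, both chosen after their values were seen. Rps25 itself scored 117 to 171.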

How the data were processed

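RISC-IP RNA of 4 control-IPs and 2 miR-222-IPs was amplified and sequenced paired-end with 100 cycles. Per the study's methods and the labels, the authors aligned reads to mm10 with SOAPSplice, converted alignments with bedtools, called peaks in each library separately with MACS2 at default settings and deposited the −log10 p of peaks over 20. Versions, control track, depth and the placing of multiply mapping reads are not given in the sources used here, so that no counting error can be stated.

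Peaks were assigned to genes of GENCODE M21 (GRCm38, the same assembly as mm10) whose exons, in any transcript, they overlapped by at least 1 bp. The score of a gene is its highest −log10 p, its percentile the mid-rank among protein-coding genes with a peak in that library. Libraries were scaled by the median of ratios over the 4160 genes that had an exonic peak in each of the 5. Within each experiment miR-222-IP was divided by the mean control-IP (log2 ratio), and labels were permuted within experiments (exact, two-sided). With no read counts, no count model was used. Experiments come from the labels. Replicate numbers do not pair libraries and were given in accession order.

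Named genes were those with the 5 highest and 5 lowest median percentiles, those with no peak, the 3 largest and 3 smallest mean ratios among members beyond the control-IPs in both experiments, members with a seed 7-mer under a peak, a list fixed by role that included Rps4l, which had no entry in the annotation, hosts of snoRNAs under peaks (up to 5 by number) and the 5 highest peaks. Members, lists and rules were chosen with earlier results of these data known. Scripts ran in Python 3.11.15 with numpy 2.4.6, pandas 2.3.3, pysam 0.24.0, Biopython 1.88 and matplotlib 3.10.9 and were tested on simulated data. Alternatives varied the score threshold, the exon overlap, peaks over several genes, the score, the scaling and the libraries. Results for some genes are not reported here.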

Additional observations from a re-analysis of the deposited data

Results flagged for a closer look

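Among the 4 control-IPs, 1 library was far from the other 3 in 7 values, by Dixon's test on the gap to the nearest library over the whole range. Control-IP replicate 3 had a median width of 57727 bp over members, against 303 to 313 bp, and 35 member peaks, against 155 to 161. Of 33 members with a score in all 4 control-IPs, 5 stood out in this way, and chance gives about 1 in 20. Control-IP replicate 3 was high for Rps29, with 212, Rpl37, with 194, and Rps12, with 102. In that list 32 of the 35 member peaks overlapped exons of several genes. Rpl36al had the same score there as Rps29, 212, so these scores need not belong to the named gene. Control-IP replicate 1 was low for Rpl3, with 54.4, and high for Rps15, with 243, where the other values of Rps15 in control-IPs used above were 239 and 238.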

How the results depend on the processing

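Over all alternatives, 71 values kept their sign and stayed within 1.5-fold for a count, or within the spread set for a value, 29 moved and 2 reversed, and the causes were not tested. At a score over 50, members with a peak in all 5 libraries fell from 79 to 56. Without scaling, the median log2 ratio of members went to −0.015 in experiment 1 and reversed to 0.22 in experiment 2 and 0.14 in the mean, with 21 members above and 6 below. Scaled to the summed score of each list it was −0.58, −0.997 and −0.74, with 0 members above, and with summed peak scores per gene −0.53, −0.66 and −0.59. Leaving out 1 control-IP of experiment 1 gave −0.487 to −0.091, the latter without replicate 1. With control-IP replicate 3 the median of experiment 2 was −0.36, with 13 members below and 0 above, and 33 members had a peak in all 6 libraries. For this setting and for scaling to the summed score, no share over all genes was computed beside the counts above and below. It was also not computed beside the 33 members with a peak in all 6 libraries. Without experiment as a block, the mean ratio was −0.46 (−0.39 with it). With summed scores, the median percentiles were 76.0, 71.3 and 63.4 in control-IP replicate 2 and miR-222-IP replicates 1 and 2. The 6-mer gave 9 members in place of 0, and 7-mers with at least 1 base under a peak, added after seeing the data, gave 1. With scores over 50, the 5′UTR share was 1.88% and the intron share 19.7%, and with peaks at least 50% exonic the intron share was 17.8% and that of exons of other transcripts 19.4%. Scaling, likewise added, left 6 members within 1.5-fold in place of 45. The lists keep peaks over 20 and hold no counts, so a weaker peak cannot be told from none.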
